A study of Homo sapiens with 2 samples.

Results

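The 10 genes described here encode the main subunits of the transcription factor AP-1 and a set of related repressors: FOS, FOSB, FOSL1 and FOSL2, JUN, JUNB and JUND, and ATF3, JDP2 and BATF3. They were taken by name, and the platform annotation gives them 23 probe sets; they are 10 of 19775 genes named on the array. RNA came from Calu-3, a human lung adenocarcinoma line used as a model of airway epithelium. One culture was stretched cyclically for 18 h on flexible plates coated with type I collagen, as a sine wave from 0.7% to 20% stretch with 2 s on and 2 s off, in medium with 10% serum, after growth to about 80% confluence. The other culture carries the label non-stretch with the same 18 h, and the labels do not describe its handling separately. Each condition was measured on 1 Affymetrix array (n = 1 per group), so no difference below has a replicate check or a test.

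AP-1 is a dimer of basic leucine zipper (bZIP) proteins. FOS proteins cannot pair with each other and bind DNA only with a partner such as a JUN protein, whereas JUN proteins can also pair among themselves. FOS, FOSB, JUN and JUNB are immediate early genes that serum, growth factors and mechanical load are known to induce briefly, while FOSL1 (FRA1) accumulates later under sustained ERK signalling. JDP2, ATF3 and BATF3 have bZIP domains that can pair with JUN proteins and, in many settings, lower transcription from AP-1 sites.

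The values are signal intensities on a linear scale, and where 2 signals are paired below the non-stretched one comes first; differences are log2 stretched minus log2 non-stretched. Signals under the 50th percentile of an array (the floor, 28.69 without and 28.35 with stretch) were raised to it, a gene counts as measured where 1 array or both lie over it, and its brightest probe set represents it. All 10 genes were measured, each over the floor without and with stretch, and 20 of their 23 probe sets passed in 1 array or both. With no replicate arrays, the only error available is the disagreement between probe sets of the same gene. For 5818 genes a pair of probe sets passed the floor on each array, and the SD of a single log2 difference estimated from them was 0.36. It fell with brightness, from 0.49 where the dimmer probe set was under 100 to 0.36 at 100 to 300, 0.26 at 300 to 1000 and 0.18 above 1000. Brightness here is the geometric mean of a probe set's signals in both arrays. For FOSL1, JDP2 and ATF3 that mean lies far from both readings, so their multiples of the SD depend on this choice. This SD reflects probes and isoforms, and the spread between separate cultures is not in it.

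The arrays had similar overall levels: the median log2 difference of the 13453 measured genes was 0.01 (stretched minus non-stretched). The 18 hybridisation spike-in probe sets had a median of -0.11 (range -0.23 to -0.03). The ratio of the 3' to the 5' control probe set was 1.04 without and 1.01 with stretch for ACTB, and 0.878 and 0.862 for GAPDH. The middle probe set for 28S ribosomal RNA went from 657 to 5338 and its 5' probe set from 3149 to 5917, while the 18S probe sets differed by -0.76 to -0.12 on the log2 scale; the part of these shifts in the results was not tested. All 10 epithelial markers were above the floor in both arrays (summed signal 63502 and 58227). Of these, ELF3, MUC1 and CFTR were lower with stretch, at -1.86, -1.45 and -1.43, and CLDN4 was at -0.67, while KRT8 and KRT18 were at 0.21 and 0.22; their part in the results was not tested. Of 7 fibroblast markers 3 and 2 were above it (summed signal 245 and 195), with COL3A1, LUM, PDGFRA and PDGFRB below it in both. Of 6 leukocyte markers 3 and 4 were above it (summed signal 1381 and 1606, mostly LYZ, which airway gland cells also make), with PTPRC below it, and of 4 endothelial markers 1 in each.

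Of the AP-1 genes, 3 differed by over 6-fold between the arrays. FOSL1 was 12.9-fold higher in the stretched array, and the repressors JDP2 and ATF3 were 10.4-fold and 6.27-fold lower. The JUN genes and FOSL2 differed by less than 2-fold, as did FOS and FOSB. Of the 10 genes, 2 were at least 2-fold higher (FOSL1 and BATF3), where 7.78% of all measured genes were, and 2 were at least 2-fold lower (JDP2 and ATF3), where 7.49% were. The median over the 10 was -0.28 on the log2 scale, with 3 above 0 and 7 below. In a culture of this kind fewer cells expressing a gene and less RNA per cell cannot be told apart.

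**Figure D1:**
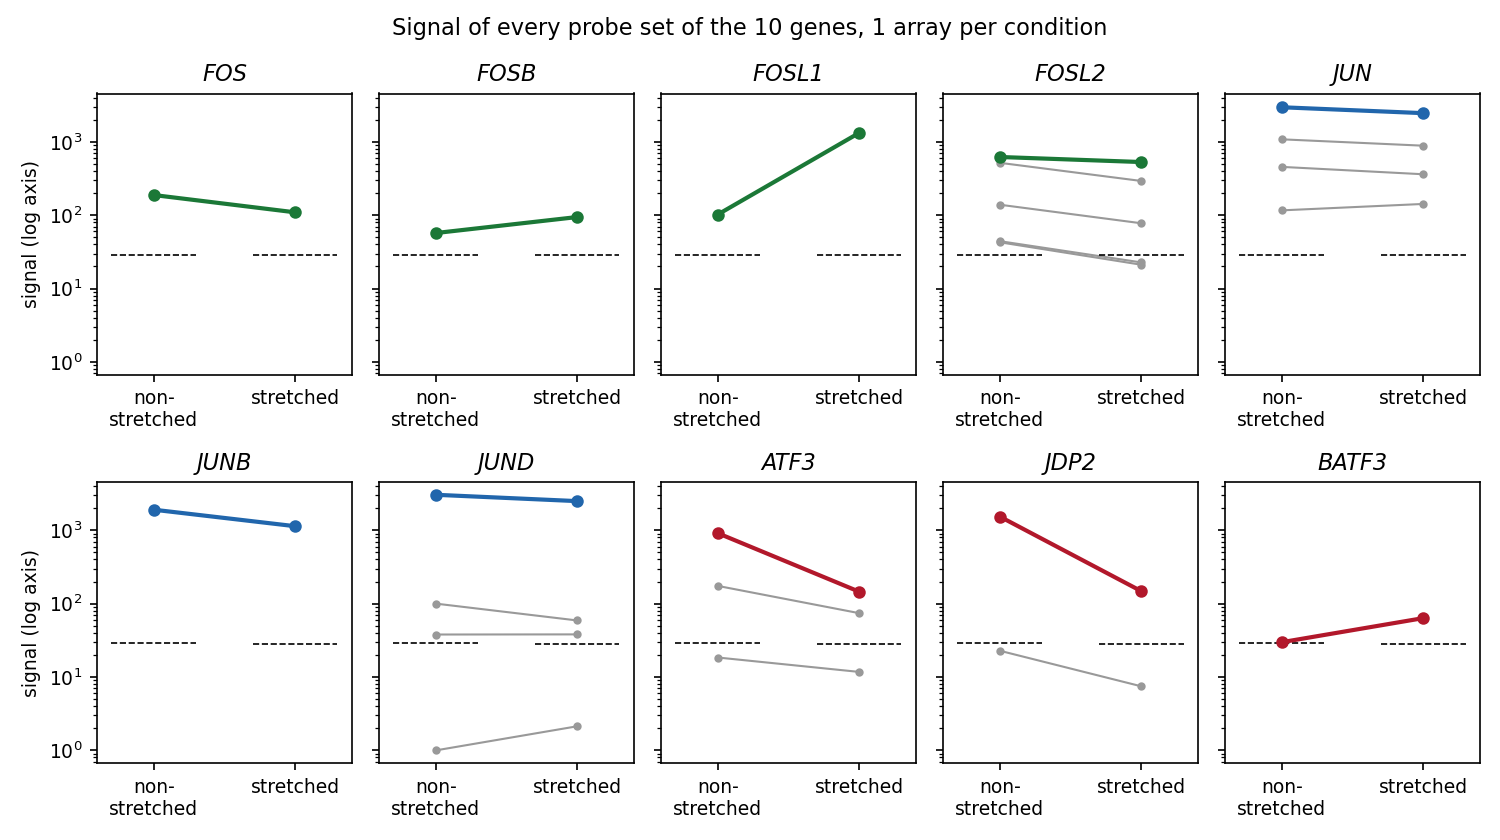
Signal (log axis) of every probe set of the 10 genes in the non-stretched and the stretched array, with 1 line per probe set. Coloured lines are the brightest probe set of each gene (green FOS group, blue JUN group, red repressors), grey lines the others, and dashed lines the floor (28.69 and 28.35). FOSL1 runs from 102 up to 1321, and JDP2 from 1538 down to 148.

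FOSL1 encodes FRA1, a FOS protein without the strong transactivation domain of FOS and a common JUN partner in migrating epithelial cells. Its only probe set read 102 without and 1321 with stretch. The log2 difference of 3.69 was 14.2 times the probe set SD at its mean brightness of 367. It ranked 6 from the top of 13453 measured genes, where 31 genes were at least 8-fold higher. Within its own array the probe set stood at the 66.5th percentile of all non-control probe sets without stretch and at the 91.4th with it.

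The other FOS genes did not share that difference. FOS, the prototype subunit, read 188 without and 109 with stretch, a log2 difference of -0.78 or 2.19 times the SD at its brightness. FOSB read 57.1 and 94.2, a log2 difference of 0.72 or 1.47 times the SD. Both were dim in both arrays, below the 75th percentile of each (231 and 249), and each rests on a single probe set.

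FOSL2 (FRA2), the other FOS protein without a strong transactivation domain, has 5 probe sets. The brightest read 621 and 530, a log2 difference of -0.23 and under 1 SD. The next read 517 and 293 (-0.82), and the one after it 139 and 77.6 (-0.84). The remaining probe sets, at 44.2 and 42.7 without stretch, were below the floor with it, so they were at least 1.56-fold and at least 1.51-fold lower. All 5 were thus lower in the stretched array, the 3 with readings on both sides by less than 2-fold.

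JUN genes supply partners for FOS proteins. JUN and JUND had close levels in both arrays, while JUNB, described below, differed more. JUN read 2956 without and 2457 with stretch in its brightest probe set, a log2 difference of -0.27. A pair of dimmer probe sets gave -0.29 and -0.33, while the fourth, at 116 and 142, gave 0.29; it is the only JUN probe set without an _x_at or _s_at ending, which marks probes that can also bind related transcripts. JUND, often described as the JUN protein of resting cells, read 3048 and 2499 (-0.29), and its dimmer probe sets gave -0.76 and 0.01. Its last probe set was below the floor, at 2.13 in the stretched array. All JUND probe sets carry an _x_at or _s_at ending.

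JUNB, a JUN protein that is a weaker activator than JUN on many AP-1 sites, read 1908 without and 1137 with stretch. This log2 difference of -0.75 was 4.25 times the SD at that brightness, the largest such multiple among the genes that stayed within 2-fold. The single JUNB probe set was 1.68-fold lower and ranked 1596 from the bottom of the 13453 measured genes.

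The largest decreases among the 10 genes were in the repressors. JDP2, which pairs with JUN proteins and recruits histone deacetylases, read 1538 without and 148 with stretch. The log2 difference of -3.37 was 13.0 times the SD and ranked 10 from the bottom, where 28 genes were at least 8-fold lower. In its own array the probe set moved from the 93.0th to the 69.8th percentile. A second JDP2 probe set, at 22.8 and 7.48, was below the floor in both arrays and gives no second reading.

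ATF3, a stress-induced repressor that can pair with JUN proteins, read 913 and 146 in its brightest probe set, a log2 difference of -2.65 and rank 65 from the bottom. A second probe set, which reads several ATF3 transcripts, gave 175 and 74.2 (-1.23, 2.35-fold lower). The direction was shared, but the sizes differed by more than the SD of either probe set. The third, at 18.5 and 11.7, was below the floor. BATF3, best known as the factor that dendritic cells of the cross-presenting kind require, read 29.8 and 63.5 and was 2.13-fold higher. The first of these signals barely cleared the floor, and the log2 difference of 1.09 was 2.21 times the SD there. It was 0.98, under 2-fold, with the arrays centred on their 75th percentiles.

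**Figure D2:**
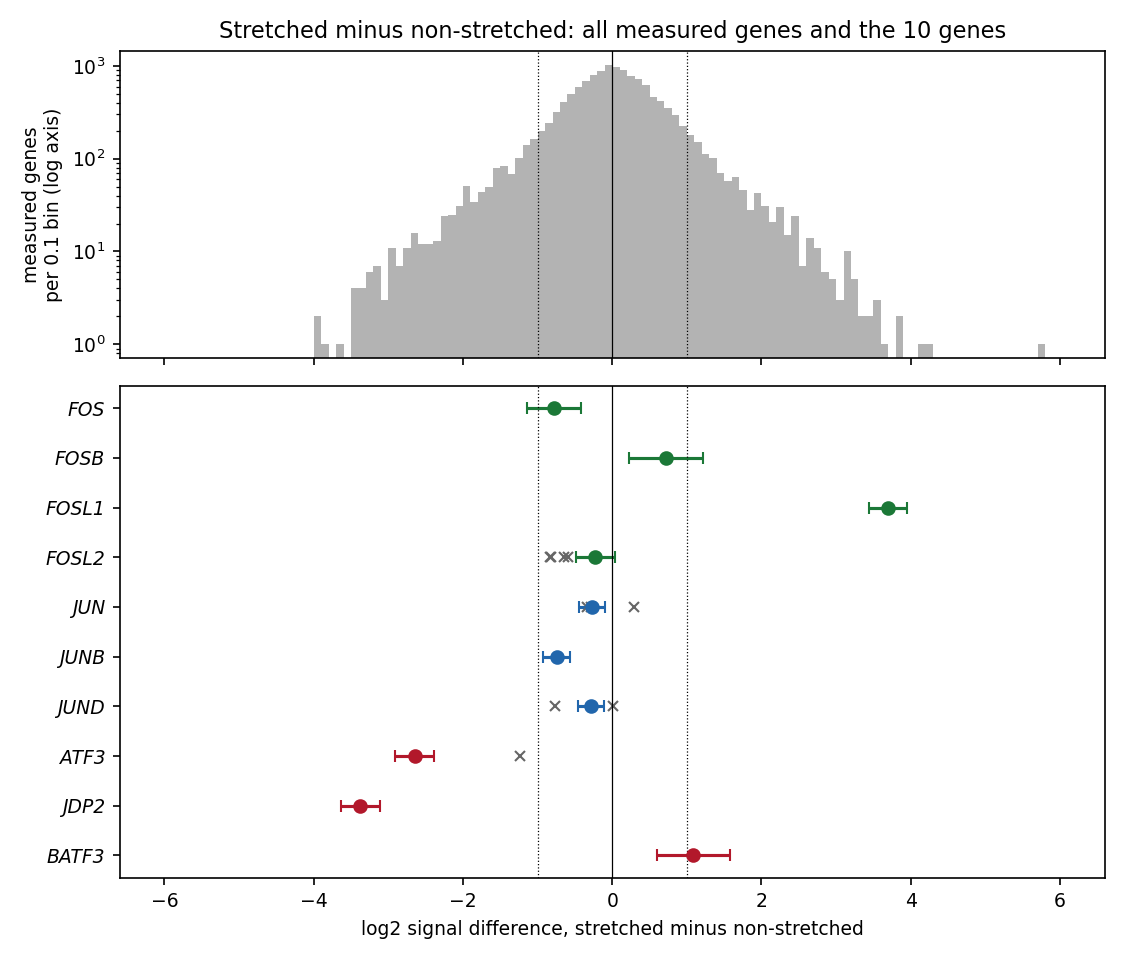
Top: number of measured genes per 0.1 bin of log2 difference, stretched minus non-stretched (log axis, 13453 genes). Bottom: the 10 genes on the same axis, with circles for the brightest probe set, bars of 1 SD between probe sets of a gene at that brightness, crosses for other measured probe sets and dotted lines at 2-fold. FOSL1 (3.69), ATF3 (-2.65) and JDP2 (-3.37) lie in the tails. JUN (-0.27) and JUND (-0.29) lie nearer 0 than JUNB (-0.75).

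Brightness depends on each probe set's sequence, so the share of each transcript among the AP-1 genes cannot be read from these signals. The change of a ratio between the arrays can, as far as probe brightness and array scale act as constant factors, which cancel. Background signal, which weighs most in dim probe sets, does not cancel. FOSL1 gained on every other FOS gene: its ratio to FOS was 22.3-fold higher in the stretched array (4.48 on the log2 scale, SD 0.44), its ratio to FOSL2 15.2-fold (3.92, SD 0.37) and its ratio to FOSB 7.84-fold (2.97, SD 0.56). FOSB over FOS was higher by 1.51 (SD 0.61), and FOSL2 over FOS by 0.55 (SD 0.44).

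Among the JUN genes the ratio shifts were smaller. JUN over JUND differed by 0.02 (SD 0.25), while JUN and JUND each gained on JUNB, by 0.48 and 0.46 (SD 0.25 each, so 1.93 and 1.85 times the SD). JUN over JUNB was 1.04 by the JUN probe set without such an ending. In the repressor group BATF3 gained 3.74 on ATF3 and 4.46 on JDP2 (SD 0.56 each), from a BATF3 signal near the floor, and ATF3 over JDP2 was higher by 0.73 (SD 0.37). With _x_at and _s_at probe sets left out, ATF3 is read by its second probe set, BATF3 over ATF3 was 2.32 and ATF3 over JDP2 2.14. Across the groups the ratio of FOSL1 to JDP2 was 134-fold higher in the stretched array (7.07 on the log2 scale, SD 0.37). Under the 75th percentile floor that log2 shift was at least 5.14, and the one of FOSL1 over FOSL2 at least 2.74, bounds because the non-stretched FOSL1 and the stretched JDP2 signals lay below that floor; the FOSL1 and JDP2 pair was chosen after its values were seen.

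**Figure D3:**
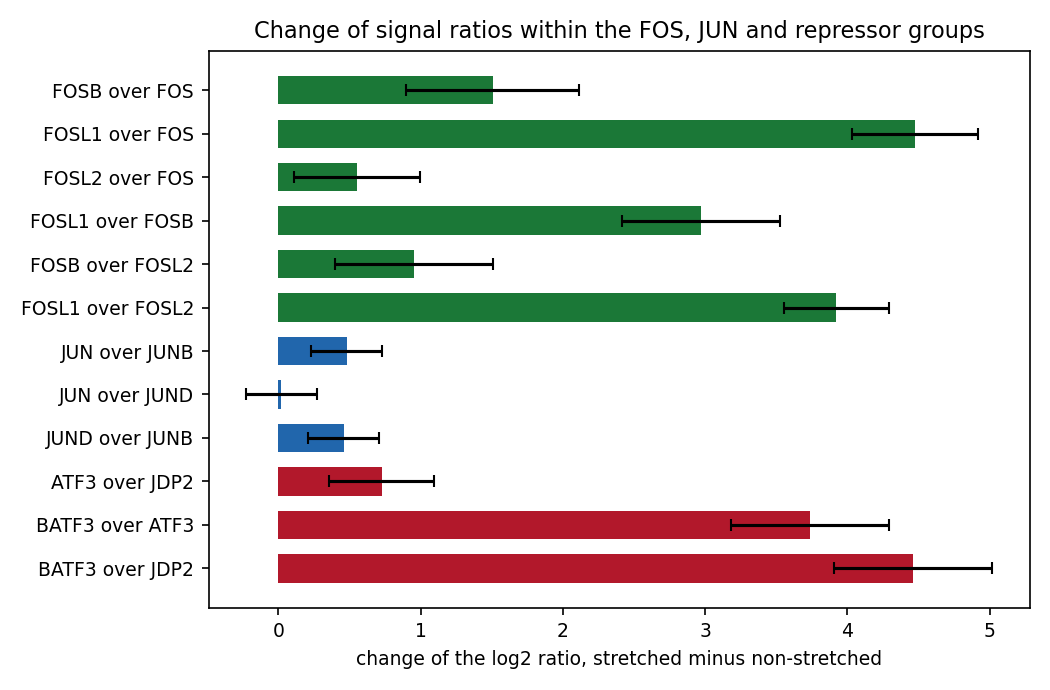
Change of the log2 ratio of each gene pair, stretched minus non-stretched, from the brightest probe sets; bars run from 0 and whiskers are 1 SD, combined from the probe set SD of both genes. Each pair is written with the gaining gene first. The FOSL1 pairs (2.97 to 4.48) and the BATF3 pairs (3.74 and 4.46) are long, and the JUN pairs (0.02 to 0.48) are short.

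Several of the genes are neighbours on their chromosomes, which allows a look at whether adjacent genes differed together. FOS, JDP2 and BATF follow one another among the protein-coding genes of chromosome 14, and their log2 differences were -0.78, -3.37 and -0.66. Of the flanking genes TMED10 was at -0.40, and FLVCR2 went from 32.7 to below the floor, which bounds its difference at -0.21 or lower. JDP2 alone of the row was shown to differ by 2-fold. On chromosome 1, ATF3 and BATF3 are separated by GARIN4 alone, and they differed in opposite directions (-2.65 and 1.09, with GARIN4 at -0.38). The outer neighbours NENF and NSL1 were at -0.01 and 0.38. FOSL1 on chromosome 11 lies between CCDC85B (0.65) and C11orf68 (0.94), and the next gene, DRAP1, was at 1.10 (958 to 2059). The outer neighbour on the other side, FIBP, was at 0.03 (2073 to 2124).

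AP-1 dimers bind the TPA response element, TGACTCA or TGAGTCA. Dimers with ATF or CREB proteins favour the cAMP response element TGACGTCA, and variants of these sites lie in promoters of the AP-1 genes themselves. RefSeq promoter windows (GRCh38.p14, 250 bases before each annotated start) were at hand for 8 of the 10 genes, 11 windows in all, and FOSL1 and BATF3 had none. Both strands were searched for TGANTCA, TGACNTCA and the half-site TGACG, which overlaps any TGACGTCA. N stands for any base, so TGANTCA is wider than the TPA response element and also matches TGAATCA and TGATTCA. No window of the 8 genes held TGANTCA, 3 genes held TGACNTCA (JUN, JUND and ATF3), and 7 held TGACG. These counts are per gene, over any of its windows. Of 35116 windows of this length, 6.57%, 6.87% and 21.2% hold these motifs, shares per window that cannot be set directly beside counts per gene. Per measured gene with a window, TGACG was held by 3780 and absent from 7136. TGANTCA was held by 685 and absent from 10231, and TGACNTCA by 821 and absent from 10095. The stretches are shown because they place the ATF3 match beside those of JUN and JUND, which had small differences, and because the JDP2 and FOS stretches hold only the half-site; capitals mark the match, and each reads 5′ to 3′ on the gene's strand.
JUN, chr1:58784081-58784140, minus strand, match 67 bases before the start: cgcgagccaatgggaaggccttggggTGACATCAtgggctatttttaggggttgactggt
JUND, chr19:18281789-18281848, minus strand, match 200 bases before the start: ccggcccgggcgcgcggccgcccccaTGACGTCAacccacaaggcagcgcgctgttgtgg
ATF3, chr1:212565258-212565317, plus strand, match 123 bases before the start: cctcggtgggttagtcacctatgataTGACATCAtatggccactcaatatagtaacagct
FOS, chr14:75278736-75278795, plus strand, match 64 bases before the start: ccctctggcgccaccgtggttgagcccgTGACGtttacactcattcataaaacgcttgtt
JDP2, chr14:75427912-75427941, plus strand, match 97 bases before one of its 3 starts: ctccgtccccctcTGACGtctggagctggc

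JUN and ATF3 carry the same 8-letter match, TGACATCA, yet their log2 differences were -0.27 and -2.65. ATF3 has a second annotated start whose window held none of the motifs. Over all measured genes with a window, the 685 that held TGANTCA had a median log2 difference of 0.01 and the 10231 without it 0.01. Those with the motif were at least 2-fold higher in 7.30% and at least 2-fold lower in 8.47% of cases, against 7.66% and 7.19% of those without. For TGACNTCA the 821 genes with a match were 2-fold higher in 6.82% and 2-fold lower in 9.14%, against 7.71% and 7.12% of the 10095 without. For the half-site TGACG the 3780 genes with a match were 2-fold higher in 7.33% and 2-fold lower in 6.98%, against 7.81% and 7.43% of the 7136 without. A match in such a short window is a description of letters and does not mark a bound site.

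The wider bZIP network was mostly lower in the stretched array. Of 26 measured partners from the ATF/CREB, CEBP, BATF and MAF families, none was at least 2-fold higher, 7 were at least 2-fold lower (26.9%, against 7.49% of all measured genes), and 19 were below 0 (6662 of the 13453 measured genes were), with a median of -0.49. DDIT3 (CHOP), a stress-induced partner of CEBP proteins, read 1948 and 214 (9.12-fold lower). MAF, a large MAF protein, was at least 4.82-fold lower, from 137 to below the floor, and its other probe sets ranged up to -0.27. CEBPD, an acute-phase activator, read 3249 and 1146 (2.84-fold lower), and BATF2 was 2.70-fold lower, from 81.0 to just over the floor.

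ATF4, the main factor of the integrated stress response and an inducer of ATF3, read 7541 and 4374, a log2 difference of -0.79 or 1.72-fold lower. ATF2, a JNK-activated partner of JUN, was at -0.54 in its brightest probe set and 0.07 in its other. BATF, a JUN partner best known in lymphocytes, was at -0.66 with signals of 94.0 and 59.6. Integrated stress response genes beside ATF3 had a median of -1.07; 6 of the 12 were lower by 2-fold or more (against 7.49% of all measured genes) and 2 were higher by as much (against 7.78%). The 2 higher genes, EIF2AK4 (1.04) and EIF2S1 (1.02), were under 2-fold with the arrays centred on their 75th percentiles and with the loess trend removed; they were named after their values were seen. With _x_at and _s_at probe sets left out the counts were 3 lower and 0 higher, but genes were lost there. VLDLR, ASNS and EIF2AK4 had no value, because the only measured probe set of each has such an ending. The brightest SESN2 probe set was left out too. CHAC1, CTH and EIF2AK3, read by probe sets without such endings, stayed at least 2-fold lower. CHAC1, a glutathione-degrading enzyme, was at least 8.74-fold lower, the cysteine-making enzyme CTH 8.24-fold, SESN2 6.02-fold and the lipoprotein receptor VLDLR 4.05-fold lower. VLDLR read 1549 and 382. This list was chosen with its earlier values known and is no independent evidence of its direction.

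Upstream of AP-1, the kinases that phosphorylate its subunits lay on both sides of 0. Of 21 measured MAP kinases, their activators and downstream RSK and MSK kinases, 3 were higher and 3 lower by 2-fold or more (14.3% each way, against 7.78% and 7.49% of all measured genes), with a median of 0.23. The count of lower genes was 1 under the 75th percentile floor and 1 with _x_at and _s_at probe sets left out. RPS6KA1 (RSK1), which ERK activates, read 215 and 665 (3.10-fold higher), and RPS6KA4 (MSK2) read 259 and 786 (3.03-fold higher). RPS6KA2 (RSK3) read 1681 and 472 (3.56-fold lower), and both of its probe sets were at -1.56 or below. MAP2K6, an activator of p38, was 3.79-fold lower by the brighter of its probe sets and at -0.41 by the other. MAPK3 (ERK1) and MAPK8 (JNK1) were at 0.07 and 0.16, with 5 MAPK8 probe sets between -0.24 and 0.70.

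Feedback inhibitors of these kinases, many of them transcribed in response to ERK activity, had a median of 0.29; 4 of the 17 were higher by 2-fold or more (23.5%, against 7.78% of all measured genes) and 1 was lower by as much (5.88%, against 7.49%). The count of lower genes was 0 under the 75th percentile floor and 0 with probe sets averaged. DUSP2, a nuclear phosphatase, read 98.9 and 630 (6.37-fold higher), and SPRY2 read 297 and 714 (2.41-fold higher). DUSP7 was 3.91-fold higher from a dim 41.2, with its other probe set at 0.38. SPRY1 went the other way, 2.30-fold lower, and DUSP1, an immediate early phosphatase, was at -0.46 (its probe sets reached 0.40). Thus members of the same gene families, RSK and Sprouty, lay on both sides of 0.

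Genes that answer the same stimuli as FOS lay on both sides of 0. SRF, ELK1, ELK3, ELK4, MRTFA and MRTFB, which act on the serum response element of FOS, all stayed within 2-fold (-0.24 to 0.39), with SRF at 0.10. Of 17 other measured immediate early genes, 2 were higher by 2-fold or more (11.8%, against 7.78% of all measured genes) and 1 lower (5.88%, against 7.49%), with a median of 0.08. The count of higher genes was 0 under the 75th percentile floor and 0 with _x_at and _s_at probe sets left out. In the latter KLF2 had no value, because its only measured probe set has such an ending. KLF2, a zinc finger factor known for its response to flow, read 61.0 and 398 (6.53-fold higher), while EGR1 read 2153 and 947 (2.27-fold lower). NR4A1 was at 1.07 from 47.5, with another probe set at -0.27. ZFP36L1 was at -0.76, with its probe sets between -1.02 and -0.02.

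Of 13 measured genes for cofactors of AP-1 proteins or for their turnover, none was 2-fold higher and 1 was 2-fold lower (7.69%, against 7.49% of all measured genes), with a median of -0.08. DET1, part of the ubiquitin ligase complex that targets JUN, read 409 and 145 (2.83-fold lower). SMARCD1, a chromatin remodelling subunit that binds FOS and JUN, was at 0.73, and the coactivators NCOA1 and EP300 at -0.47 and -0.46.

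Textbook AP-1 target genes had a median of -0.06 over 22 measured. By 2-fold or more, 3 were higher (13.6%, against 7.78% of all measured genes) and 2 lower (9.09%, against 7.49%); 1 was 2-fold lower with the arrays centred on their medians and 0 when centred on the spike-ins. MMP1, the interstitial collagenase whose promoter is a classic AP-1 target, read 30.6 and 1600, a difference of 5.71 on the log2 scale from a signal just above the floor. LMNA, which encodes lamins A and C, read 1348 and 3139 (2.33-fold higher) with its 5 probe sets between 0.62 and 1.73. Involucrin (IVL), a squamous marker, was at least 2.11-fold higher. HMOX1, an oxidative stress enzyme, read 97.5 and 47.7 (2.04-fold lower). The other matrix metalloproteinases of the list, named after their values were seen, were MMP9 at -0.18 (61.1 and 54.0) and MMP3, MMP10 and MMP13, all below the floor in both arrays.

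**Figure D4:**
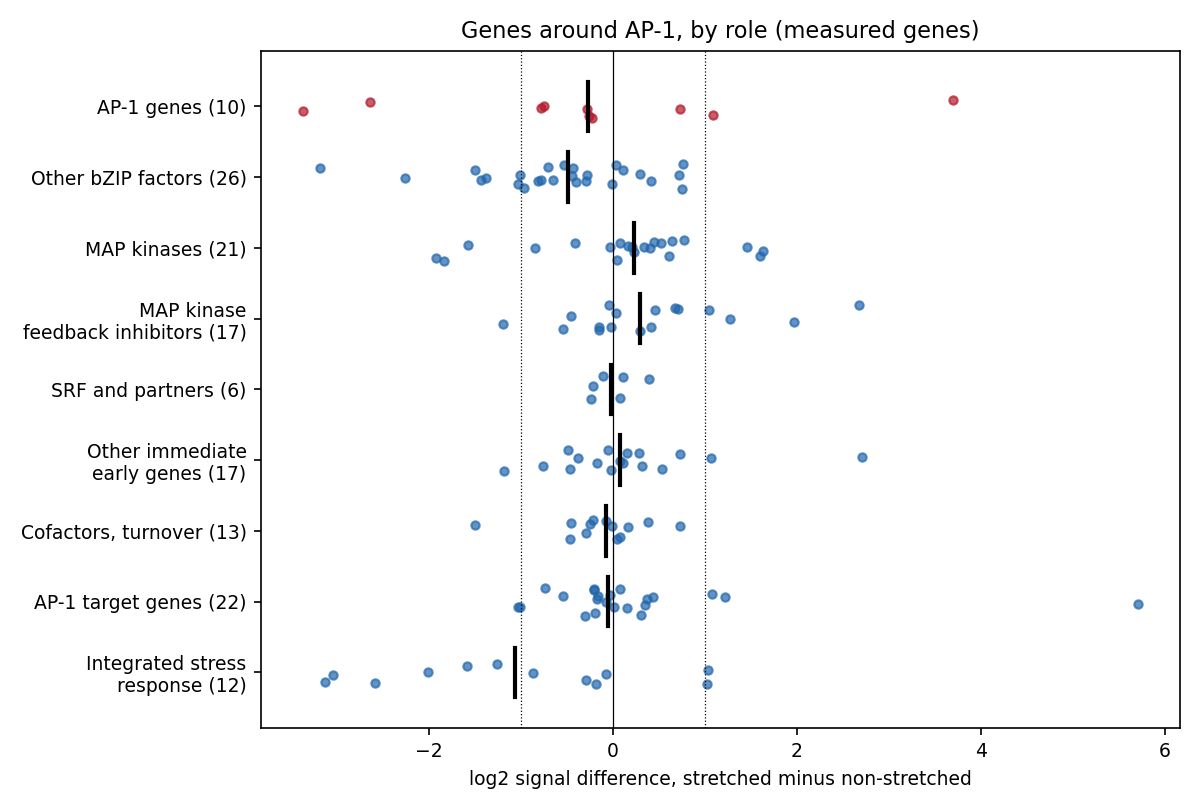
Log2 difference (stretched minus non-stretched) of each measured gene, by role around AP-1, with the number of measured genes in brackets; points are genes (brightest probe set, scattered vertically for visibility), black bars list medians and dotted lines 2-fold. The medians run from -1.07 for the integrated stress response to 0.29 for the MAP kinase feedback inhibitors, and MMP1 is the single point at 5.71.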

How the data were processed

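RNA from 1 stretched and 1 non-stretched Calu-3 culture was measured on Affymetrix arrays. The authors deposited 1 signal intensity per probe set (54675, of which 62 are controls); per the labels' protocols, biotin-labelled cRNA was made from 6 µg of total RNA. The summarisation and scaling software is not given in the sources used here.

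Intensities were used as deposited and converted to log2 (Python 3.11.15, numpy 2.4.6, pandas 2.3.3). Gene names came from the platform annotation, updated through gene IDs to RefSeq symbols; 41037 probe sets had a current symbol, 54 an older one, 1801 several genes and 11721 were unnamed, and the last 2 classes were not used. The floor was the 50th percentile of each array, and a gene's probe set was the one with the highest mean log2 signal. A difference of at least 2-fold was counted. With 1 array per group there was no test, and the number of arrays limits the precision.

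Named were the 10 genes, up to 4 genes of each role list with the largest difference, and 11 set by name; neighbouring genes were added later. The genes and lists were chosen with earlier results of these data known. Scripts were tested on simulated data.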

Additional observations from a re-analysis of the deposited data

How the results depend on the processing

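FOSL1, JDP2 and ATF3 kept their direction and 2-fold difference under all 8 alternatives of floor, probe set choice and scaling. Several of these could not change FOSL1 and JDP2. Each has 1 measured probe set, without an _x_at or _s_at ending and over the floor in both arrays. Removing the floor, averaging probe sets or leaving out those endings therefore returned 3.69 and -3.37 unchanged. Centring moved every gene by the same small amount. FOSL1 ranged from 2.51 to 3.81, JDP2 from -3.48 to -2.63 and ATF3 from -2.76 to -1.23 on the log2 scale. The 2.51 and -2.63 are bounds from the 75th percentile floor, to which the non-stretched FOSL1 and stretched JDP2 signals were raised. JUN was at 0.29 once _x_at and _s_at probe sets were left out, where JUND had no value. No gene of the 10 with a 2-fold difference changed sign in any setting. With the floor at the 75th percentile FOS, FOSB and BATF3 were not measured. Of the 7 genes left, 1 was at least 2-fold higher and 2 lower, and 549 and 394 of all genes measured there were higher and lower. The total measured under that floor is not given here, so these counts carry no share. Centred on the 75th percentile, 1 of the 10 was 2-fold higher, because BATF3 was at 0.98, and 2 were lower. Of the 13453 measured genes, a number that centring does not change, 853 were higher and 1218 lower there. At 1.5-fold, 3 of the 10 were higher and 4 lower, and 2405 and 2249 of the 13453 measured genes were higher and lower. At 3-fold, 1 of the 10 was higher and 2 lower, and 386 and 378 of the 13453 were higher and lower. No paired analysis was possible because each group has 1 array. Of the role lists, the bZIP partners had 4 genes 2-fold lower under the 75th percentile floor and 4 with _x_at and _s_at probe sets left out. The integrated stress genes had 3 lower in the latter, where VLDLR, ASNS and EIF2AK4 had no value. Fewer genes can be measured in these settings, so the counts are not out of 26 and 12. Dim genes (FOS, FOSB, BATF3) are limited by their signal over the floor.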
